A study of Mus musculus with 28 samples.

Results

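The genes described here belong to families that write or erase the chemical marks on histones, or slide and evict nucleosomes, though some members act mainly elsewhere. They are the rows of the CPM table (counts scaled to the same total in each library) whose symbols begin with Kdm, Kmt, Kat, Setd or Smarc followed by a number or family letter, or are a numbered Hdac, Sirt, Prmt or Chd. A mean of at least 5 CPM over the 28 libraries was also required. The symbol patterns took 91 genes, and 82 of them, out of 30386 genes in the table, passed the minimum. The 9 symbols below it included Hdac10 at 4.0 CPM, Chd5 and Hdac9 at 3.2 CPM, Kdm5d at 1.3 CPM and Sirt5 at 1.2 CPM. The members just inside it were Prmt8 at 5.1 CPM, Sirt3 at 5.2 CPM and Hdac8 at 5.9 CPM. The 82 members are 15 lysine demethylases, 8 Kmt and 8 Setd lysine methyltransferases, 8 lysine acetyltransferases, 9 zinc-dependent histone deacetylases, 5 sirtuins, 8 arginine methyltransferases, 13 Smarc genes and 8 CHD remodellers. Each of the 82 also passed the filter on low counts, so all were tested.

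The cells were E14, a line of mouse embryonic stem cells grown on gelatin in the serum-free medium N2B27. The 2iL mixture holds CHIR99021 at 3 µM, which inhibits the kinase GSK3, PD0325901 at 1 µM, which inhibits the kinase MEK, and the cytokine LIF. A group kept in 2iL was set beside groups from which 2iL had been removed for 24, 48, 96 or 120 h. The 120 h time is from the sample labels, since the treatment protocol gives collection times up to 96 h. A further pair of arms, called 48 h + 2iL and 96 h + 2iL, received 2iL again for a final 24 h after 48 or 96 h without it. Each of the 7 groups has 4 libraries, numbered here by their experiment from 1 to 4, and all come from the same line. No group withdrawn for 72 h is among them, so the 48 h + 2iL cells have no reference of equal total time, while the 96 h + 2iL cells have the 120 h group.

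Removing 2iL lets naive pluripotent cells leave the ground state, pass through a formative stage and enter lineages, in N2B27 mostly the neural one. Acetyltransferases add acetyl groups to histone lysines, which goes with open chromatin, and histone deacetylases and sirtuins take them off. Lysine and arginine methyltransferases add methyl groups whose effect depends on the residue, and lysine demethylases remove them. Most of the Smarc genes encode ATPases and subunits of the SWI/SNF (BAF) complexes and of ISWI remodellers. The CHD genes encode chromodomain helicases, some of which are the motors of the NuRD corepressor complex.

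Gene counts ranged from 1554830 to 2828694 per library, read at the 3′ ends of polyadenylated transcripts, so levels of different genes are not compared. Values are CPM after TMM scaling (a correction for library composition), with the mean ± SD over 4 libraries. Differences are log2 fold changes with the SE from 1 fit over all 11080 genes tested, and a gene is called to have risen or fallen where its p adjusted over all of them is under 0.05. A call described with its value below that did not pass under another setting, or with 1 library left out, is given as lost, with the highest adjusted p over all settings tried and with libraries named by experiment number. The naive marker list (Zfp42, Klf4, Esrrb, Nanog and Tfcp2l1) summed to 1450 to 1670 CPM in 2iL, 551 to 676 CPM at 24 h, 151 to 273 CPM at 48 h, 50.6 to 103 CPM at 96 h and 41 to 57.4 CPM at 120 h, and to 880 to 1110 CPM in 48 h + 2iL and 59.4 to 361 CPM in 96 h + 2iL. The neural progenitor list (Sox1, Pax6, Zic1, Pou3f2 and Nes) summed to 12.8 to 23.2 CPM in 2iL, where Zic1 was at 0, 77.6 to 238 CPM at 96 h, 207 to 476 CPM at 120 h, 26.1 to 42.8 CPM in 48 h + 2iL and 157 to 538 CPM in 96 h + 2iL. The formative list (Fgf5, Otx2, Pou3f1 and Dnmt3b) summed to 84 to 129 CPM in 2iL, 714 to 907 CPM at 24 h, 1550 to 2170 CPM at 48 h, 1060 to 2200 CPM at 96 h, 438 to 1220 CPM at 120 h, 174 to 246 CPM in 48 h + 2iL and 166 to 411 CPM in 96 h + 2iL. The mesendoderm list (T, Eomes, Mixl1 and Gsc) summed to 20.3 to 34.1 CPM in 2iL, 0.613 to 3.66 CPM at 48 h, 8.28 to 15 CPM at 96 h and 23.9 to 83.9 CPM at 120 h. It reached 60.1 to 127 CPM in 48 h + 2iL and 5.35 to 123 CPM in 96 h + 2iL. The trophoblast list (Cdx2, Elf5, Tfap2c, Krt8 and Krt18) summed to 79.4 to 149 CPM in 2iL, 23.2 to 33.7 CPM at 48 h, 25.7 to 72 CPM at 96 h, 44.1 to 72.5 CPM at 120 h, 95 to 171 CPM in 48 h + 2iL and 50.1 to 261 CPM in 96 h + 2iL, and Elf5 was at 0 in 6 of the 7 groups. A neuron list summed to 106 to 132 CPM in 2iL, 208 to 256 CPM at 96 h and 136 to 294 CPM in 96 h + 2iL. A primitive endoderm list stayed at or below 13.1 CPM in every library, and a fibroblast list summed to 124 to 394 CPM at 120 h, against 151 to 317 CPM in 2iL. These lists move with many of the members below, and their part in the results was not tested. The 96 h + 2iL library of experiment 3 stands apart, with a naive sum of 59.4 CPM and a neural sum of 538 CPM, against 171 to 361 CPM and 157 to 335 CPM in the other 3 libraries of that group. Experiment 3 also differed at 96 h, with a neural sum of 238 CPM, against 77.6 to 131 CPM, and a formative sum of 1060 CPM, against 1970 to 2200 CPM. At 120 h its neural sum was 476 CPM, against 207 to 285 CPM, and its formative sum 438 CPM, against 651 to 1220 CPM. Its 96 h library held the highest Chd3, Chd7, Prmt2 and Hdac7 and the lowest Kat2b values of that group. Without it 29 members were called at 96 h in place of 33, and without its 120 h library 32 at 120 h in place of 37. Results on the 96 h + 2iL group are given with and without the experiment 3 library where it ends a call. In bulk RNA, fewer cells of a type and less RNA per cell cannot be told apart.

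The number of members that changed grew with time without 2iL, at about the rate of all genes. At 24 h, 12 of 82 members were called, 7 higher and 5 lower than in 2iL, and 16% of all genes tested were called, 7.68% higher and 8.29% lower. At 48 h, 25 members were called (16 higher, 9 lower), beside 27.8% of all genes (14.6% higher, 13.2% lower). At 96 h 33 were called (18 higher, 15 lower), beside 41.1% (21.9% higher, 19.2% lower), and at 120 h 37 (21 higher, 16 lower), beside 47.3% (24.6% higher, 22.6% lower). These 4 comparisons share the 2iL libraries. The share of members called was 14.6%, 30.5%, 40.2% and 45.1% in order of time, near the share of all genes each time, and the median log2 fold change of the members at 120 h was -0.01, against 0.01 over all genes. Scaled by library totals instead, the split at 120 h was 25 higher and 12 lower, and that scaling moved the median of all genes by 0.121 on the log2 scale. Between any of the 7 groups, 54 of 82 members differed, and 62.3% of all genes did.

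**Figure D1:**
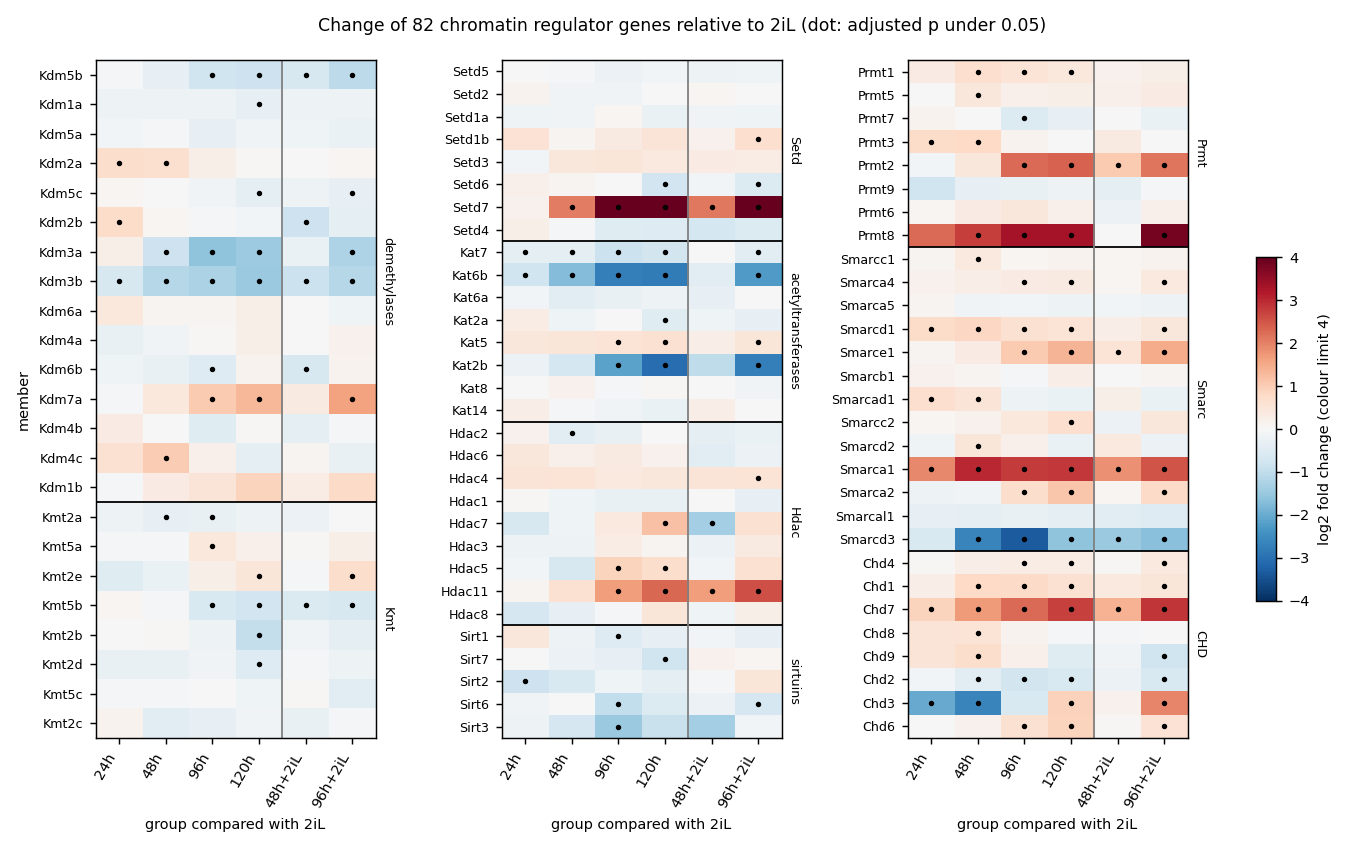
Log2 fold change of each of the 82 members (rows, by family) against 2iL at 24, 48, 96 and 120 h of withdrawal and in the 48 h + 2iL and 96 h + 2iL groups (columns). Colour gives the log2 fold change and a dot marks a call at adjusted p under 0.05. Calls become denser from 24 h (12 members) to 120 h (37 members), and the 96 h + 2iL column holds 32.

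Members differed in how far they moved between groups. The ratio of a member's highest to its lowest group mean had a median of 1.75 and ran from 1.18 to 24.3, with 26 members above 2 and 11 above 4. The same ratio was not taken over all genes, so these values have no background beside them. No comparison of a pair of groups called 23 members, among them Hdac1 and Hdac3, the catalytic subunits of several corepressor complexes, Smarcb1, a core BAF subunit, Smarca5, an ISWI ATPase, Kdm6a, Kmt2c, Setd2 and Setd1a. Their 95% intervals at 120 h against 2iL lay between -1.42 and 1.84 on the log2 scale, so the data do not limit every one of them to a small change. How many of all genes were called in no such comparison was not counted. The 23 are therefore not shown to be particular to the members.

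Promoter sequence is given for 4 members, of which 2 had some of the largest rises on withdrawal (Setd7 and Smarca1) and 2 some of the largest falls (Kat6b and Smarcd3). The windows run from 250 bases before to 50 bases after an annotated start. They are RefSeq sequence on GRCm38.p6, written 5′ to 3′ on the gene's strand. Capitals mark matches on either strand to the letters searched, which were CTTTGAT for TCF/LEF factors, TTCNNNGAA for STAT factors, CCGGAAGT for ETS factors and GGGCGG for SP/KLF factors. The Setd7 window is chr3:51560774-51561073 on the minus strand, with 21 CpG and 1 STAT match. The Smarca1 window is chrX:47892564-47892863 on the minus strand, with 9 CpG and 1 SP/KLF match. This window lies inside the gene, whose annotated 5′ end is at 47892974. The Kat6b window, the first of 2 for that gene, is chr14:21499520-21499819 on the plus strand, with 32 CpG and 8 SP/KLF matches, of which a pair overlap. That window lies inside the gene, whose annotated 5′ end is at 21481434. The Smarcd3 window is chr5:24601953-24602252 on the minus strand, with 40 CpG and 2 overlapping SP/KLF matches. It also lies inside its gene, whose annotated 5′ end is at 24624411. Reads at 3′ ends do not show which start Smarca1, Kat6b or Smarcd3 used.
Setd7: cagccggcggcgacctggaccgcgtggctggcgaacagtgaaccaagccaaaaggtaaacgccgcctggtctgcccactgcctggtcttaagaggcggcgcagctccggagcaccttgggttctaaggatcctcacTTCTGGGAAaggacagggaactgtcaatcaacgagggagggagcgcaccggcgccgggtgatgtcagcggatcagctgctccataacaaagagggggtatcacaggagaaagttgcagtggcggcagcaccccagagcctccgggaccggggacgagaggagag
Smarca1: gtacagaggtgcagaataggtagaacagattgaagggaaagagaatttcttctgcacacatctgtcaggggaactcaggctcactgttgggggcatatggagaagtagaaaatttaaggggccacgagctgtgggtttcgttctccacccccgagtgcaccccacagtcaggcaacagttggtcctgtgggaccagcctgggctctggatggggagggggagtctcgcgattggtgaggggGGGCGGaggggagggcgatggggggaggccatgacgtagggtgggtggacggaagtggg
Kat6b: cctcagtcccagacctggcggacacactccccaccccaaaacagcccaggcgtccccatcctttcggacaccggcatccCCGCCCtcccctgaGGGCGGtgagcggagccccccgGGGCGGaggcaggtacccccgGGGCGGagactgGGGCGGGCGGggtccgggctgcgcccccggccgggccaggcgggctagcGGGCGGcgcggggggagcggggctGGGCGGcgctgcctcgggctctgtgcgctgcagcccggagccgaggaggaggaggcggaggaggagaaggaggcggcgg
Smarcd3: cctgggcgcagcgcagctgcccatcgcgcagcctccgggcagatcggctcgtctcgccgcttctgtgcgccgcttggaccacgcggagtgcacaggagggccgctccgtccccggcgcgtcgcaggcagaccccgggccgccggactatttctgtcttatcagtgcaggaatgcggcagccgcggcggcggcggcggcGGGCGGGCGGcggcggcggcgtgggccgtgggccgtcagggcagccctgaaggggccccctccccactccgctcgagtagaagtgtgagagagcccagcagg
Of the members, 66 matched the table, with 89 windows. Their windows had a median of 24 CpG, against 7 in all 32851 windows. The SP/KLF letters stood in 68.5% of member windows and 35.7% of all windows, the STAT letters in 7.87% and 8.3%, the ETS letters in 6.74% and 3.89%, and the TCF/LEF letters in 1.12% and 3.73%. These matches describe letters and are not measured binding. All windows cover genes at any expression level, while members had to pass 5 CPM. Windows of expressed genes alone were not compared, so no contrast here is shown to be particular to the members.

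Among the SET-domain lysine methyltransferases Setd7 had the largest rise of any member at 120 h. Setd7 (ENSMUSG00000037111, chromosome 3, 51515319 to 51560879, minus strand, mm10) adds a single methyl group to histone H3 and to several transcription factors. Setd7 had 1.93, 2.15, 1.13 and 4.54 CPM in the 2iL libraries, 1.22, 4.24, 1.89 and 2.76 at 24 h, 10.9, 7.9, 11 and 9.2 at 48 h, 33, 30.3, 48 and 41.8 at 96 h and 43.6, 54.1, 31.1 and 39.3 at 120 h. All 4 libraries of 48, 96 and 120 h lay above all 2iL libraries, while those of 24 h overlapped them. The log2 fold change was 2.05 ± 0.40 (adjusted p = 0.00016) at 48 h, 4.02 ± 0.35 (adjusted p = 5.4e-11) at 96 h and 4.15 ± 0.35 (adjusted p = 2.05e-11) at 120 h. Setd7 had 10.1, 4.63, 16.6 and 8.84 CPM in the 48 h + 2iL libraries and 36.1, 40.8, 43.3 and 32.9 CPM in the 96 h + 2iL libraries. The return of 2iL gave no detectable change, at 0.05 ± 0.32 log2 (adjusted p = 0.944) against 48 h, with an interval of -0.61 to 0.71, and 0.00 ± 0.26 log2 (adjusted p = 0.997) against 96 h, with an interval of -0.53 to 0.53. Against cells never withdrawn, Setd7 was still higher, by a log2 fold change of 2.10 in 48 h + 2iL and 4.02 in 96 h + 2iL. Of the other 7 Setd genes Setd6, known for methylating the RelA subunit of NF-kB, was called at 120 h, where 47.3% of all genes were. Setd6 had 34.3, 39.5, 34.2 and 23.8 CPM in the 2iL libraries, 52.9, 31.1, 40.3 and 27 at 24 h, 38.9, 37, 30.5 and 35 at 48 h, 35.8, 30.3, 27.9 and 38.5 at 96 h and 20.5, 25.3, 16.2 and 16.5 at 120 h. It was -0.75 ± 0.21 log2 (adjusted p = 0.00393) at 120 h, where the ranges of the groups overlapped. Setd6 had 38.4, 26.1, 34.1 and 24.2 CPM in the 48 h + 2iL libraries and 19.9, 23.9, 22.9 and 23 CPM in the 96 h + 2iL libraries. In 96 h + 2iL it stood at -0.56 ± 0.21 log2 (adjusted p = 0.0333) against 2iL, lost with library totals, without the filter on low counts, with only these groups in the fit, whichever 96 h + 2iL library was left out or without 2iL library 1, 2 or 3 (adjusted p up to 0.108).

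Of the 8 Kmt genes, Kmt2e rose at 120 h and Kmt2b, Kmt5b and Kmt2d fell, beside 24.6% and 22.6% of all genes. The Kmt2d call, at -0.53 ± 0.21 log2 (adjusted p = 0.0371), was lost with library totals, without the filter on low counts, without 120 h library 1, 2 or 3 or without 2iL library 1 or 3 (adjusted p up to 0.126). Kmt2b encodes an MLL-type enzyme that methylates histone H3 at promoters. Kmt2b had 37.2, 42.9, 48.5 and 46 CPM in the 2iL libraries, 55.9, 40.5, 44.7 and 31.1 at 24 h, 39.9, 36.5, 56.8 and 46 at 48 h, 48.6, 22.6, 44.9 and 37.3 at 96 h and 21.3, 26.3, 18 and 25.5 at 120 h. All 120 h libraries lay below all 2iL libraries, at -0.94 ± 0.21 log2 (adjusted p = 4e-04), and no earlier time was called. Kmt2b had 42, 38.3, 43.6 and 35.8 CPM in the 48 h + 2iL libraries and 34.7, 42.5, 29.2 and 30.4 CPM in the 96 h + 2iL libraries. Kmt5b, which adds the later methyl groups to a lysine of histone H4, was called from 96 h. Kmt5b had 69.6, 58.4, 67.6 and 81.8 CPM in the 2iL libraries, 72.9, 61.7, 74.3 and 80.9 at 24 h, 64.8, 82.5, 54.9 and 63.2 at 48 h, 49.5, 45.3, 44 and 42.2 at 96 h and 43.6, 54.1, 33.8 and 31.3 at 120 h. All libraries of both times lay below all 2iL libraries, and the log2 fold change was -0.61 ± 0.17 (adjusted p = 0.00505) at 96 h and -0.77 ± 0.18 (adjusted p = 0.000539) at 120 h. Kmt5b had 36.9, 51.7, 43.6 and 51.2 CPM in the 48 h + 2iL libraries and 35.1, 57.8, 38.9 and 47.2 CPM in the 96 h + 2iL libraries. The 48 h + 2iL group was the lower one against 48 h, at -0.53 ± 0.18 log2 (adjusted p = 0.0368), lost with library totals, without the filter on low counts, without 48 h + 2iL library 1 or 3 or without 48 h library 1, 2 or 4 (adjusted p up to 0.18). Kmt2e, an MLL-family member without clear enzyme activity, had the weakest of these calls. Kmt2e had 75.4, 59.2, 88.3 and 84 CPM in the 2iL libraries, 46.2, 50.4, 83.8 and 40.1 at 24 h, 67.9, 58.8, 71.4 and 57.6 at 48 h, 84.4, 85.7, 92.4 and 101 at 96 h and 78.3, 81.5, 152 and 120 at 120 h. Its ranges at 120 h and in 2iL overlapped, at 0.49 ± 0.20 log2 (adjusted p = 0.0448), lost with only these groups in the fit, without 120 h library 3 or 4 or without 2iL library 1, 2 or 4 (adjusted p up to 0.279). Kmt2e had 69.3, 58.5, 83.1 and 83.3 CPM in the 48 h + 2iL libraries and 96.4, 105, 165 and 133 CPM in the 96 h + 2iL libraries, and was 0.70 ± 0.20 log2 (adjusted p = 0.00563) in 96 h + 2iL against 2iL.

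Of the 8 arginine methyltransferases, Prmt1, Prmt2 and Prmt8 were called higher at 120 h and none lower, beside 24.6% and 22.6% of all genes. At 48 h Prmt3 and Prmt5, the main enzyme of symmetric arginine methylation, were also higher, at 0.79 ± 0.17 log2 (adjusted p = 0.000613) and 0.47 ± 0.14 log2 (adjusted p = 0.00902). Prmt7 was lower at 96 h alone, at -0.54 ± 0.20 log2 (adjusted p = 0.0331), with overlapping ranges. The Prmt7 call was lost with library totals, with only these groups in the fit, without 96 h library 2, 3 or 4 or without 2iL library 1 or 2 (adjusted p up to 0.132). Prmt2 (chromosome 10, 76207222 to 76237865) adds methyl groups to arginines of histones and coactivators, and Prmt8 (chromosome 6, 127689011 to 127769472) is a membrane-anchored enzyme known from the brain. Prmt2 had 3.86, 8.16, 7.14 and 4.54 CPM in the 2iL libraries, 8.51, 6.6, 2.52 and 4.15 at 24 h, 6.74, 13.3, 6.1 and 6.13 at 48 h, 22.9, 26.3, 43.2 and 25.1 at 96 h and 37.3, 27.8, 31.1 and 27.7 at 120 h. No rise was called at 24 h or 48 h, and at 96 h all libraries lay above 2iL, at 2.27 ± 0.30 log2 (adjusted p = 2.6e-07), with 2.35 ± 0.30 log2 (adjusted p = 9.92e-08) at 120 h. Prmt2 had 9.6, 11.4, 16.6 and 12.1 CPM in the 48 h + 2iL libraries and 32.3, 24.8, 27.7 and 21.7 CPM in the 96 h + 2iL libraries. All 96 h + 2iL libraries lay above all 2iL libraries, at 2.13 ± 0.30 log2 (adjusted p = 1.03e-06). In 48 h + 2iL Prmt2 stood at 1.04 ± 0.32 log2 (adjusted p = 0.0284) against 2iL, lost without 48 h + 2iL library 3 or 4 or without 2iL library 1 or 4 (adjusted p up to 0.129). Prmt8 had 0, 1.29, 0.376 and 1.14 CPM in the 2iL libraries, 0.608, 0.943, 7.56 and 5.53 at 24 h, 8.3, 2.96, 1.22 and 7.36 at 48 h, 9.17, 5.66, 6.54 and 8.11 at 96 h and 8.21, 3.97, 9.01 and 8.04 at 120 h. Those 2iL values rest on 0, 3, 1 and 2 counts, and 24 h and 48 h libraries were spread. The log2 fold change was 2.76 ± 0.76 (adjusted p = 0.0061) at 48 h, with overlapping ranges, and 3.32 ± 0.73 (adjusted p = 0.000312) at 120 h, with none. Prmt8 had 0.506, 0, 0.416 and 1.86 CPM in the 48 h + 2iL libraries and 5.22, 10.7, 10.7 and 15.5 CPM in the 96 h + 2iL libraries. The 48 h + 2iL libraries overlapped those of 2iL, and were -2.77 ± 0.76 log2 (adjusted p = 0.0111) against 48 h, lost without 48 h library 1 (adjusted p up to 0.0577). Without 48 h + 2iL library 4, the highest of that group, the log2 fold change was -3.81. The 96 h + 2iL libraries all lay above 2iL, at 3.82 ± 0.71 log2 (adjusted p = 5.63e-05) against 2iL. Prmt1, the main enzyme of asymmetric arginine methylation, averaged 1202 ± 114 CPM at 48 h and 750.3 ± 131 CPM in 2iL, and its log2 fold change was 0.68 ± 0.13 (adjusted p = 0.000106).

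Of the 15 demethylases, Kdm3a, Kdm3b, Kdm5b, Kdm5c and Kdm1a fell at 120 h and Kdm7a rose, beside 22.6% and 24.6% of all genes. The Kdm5c call, at -0.36 ± 0.12 log2 (adjusted p = 0.0189), was lost with library totals, without the filter on low counts, without 120 h library 1 or without 2iL library 3 (adjusted p up to 0.132). The Kdm1a call, at -0.32 ± 0.11 log2 (adjusted p = 0.0135), was lost with library totals or without the filter on low counts (adjusted p up to 0.121). Kdm3a (chromosome 6, 71588972 to 71632990) and Kdm3b (chromosome 18, 34777047 to 34838660) are close relatives that remove methyl groups from a lysine of histone H3 in silent chromatin. Kdm3a had 73.9, 78.6, 68.8 and 71.5 CPM in the 2iL libraries, 111, 74.9, 93.2 and 63.6 at 24 h, 38.4, 36.5, 42.1 and 46.6 at 48 h, 31.2, 19.8, 24 and 20.3 at 96 h and 20.9, 23.8, 32 and 30.8 at 120 h. The libraries of 24 h covered the range of 2iL and those from 48 h on lay below it, at -0.84 ± 0.20 log2 (adjusted p = 0.00201) at 48 h and -1.45 ± 0.21 log2 (adjusted p = 8.23e-07) at 120 h. Kdm3b had 87.4, 84.1, 64.2 and 93.1 CPM in the 2iL libraries, 66.2, 44.3, 42.8 and 58.1 at 24 h, 29.6, 53.3, 27.5 and 37.4 at 48 h, 39.9, 32.3, 33.6 and 29.6 at 96 h and 30.6, 34.3, 27.9 and 23.7 at 120 h. Kdm3b had fallen earlier, at -0.64 ± 0.20 log2 (adjusted p = 0.0224) at 24 h, where 1 of the 24 h libraries was above the lowest 2iL library, and was -1.49 ± 0.20 log2 (adjusted p = 2.2e-07) at 120 h. That first call was lost without 24 h library 2 or 3 or without 2iL library 2 or 4 (adjusted p up to 0.0811). Kdm3a had 75.8, 78.2, 50.3 and 41.9 CPM in the 48 h + 2iL libraries and 34.2, 27.6, 38.9 and 21.7 CPM in the 96 h + 2iL libraries. It rose in 48 h + 2iL against 48 h, at 0.59 ± 0.21 log2 (adjusted p = 0.049), with experiments 1 and 2 at the 2iL level and experiments 3 and 4 near the 48 h level. That call was lost without 48 h + 2iL library 1 or 2 or whichever 48 h library was left out (adjusted p up to 0.187). Kdm3b had 43.5, 53.4, 42 and 40 CPM in the 48 h + 2iL libraries and 34.2, 49.1, 27.3 and 38.5 CPM in the 96 h + 2iL libraries. No rise of Kdm3b was called in either arm, and its log2 fold change against 2iL was -0.87 in 48 h + 2iL and -1.13 in 96 h + 2iL, both called. Kdm5b, which removes methyl groups from active promoters, averaged 269 ± 10.8 CPM at 120 h and 473 ± 115 CPM in 2iL, at -0.81 ± 0.14 log2 (adjusted p = 7.88e-06).

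The CpG-island binding demethylases Kdm2a and Kdm2b rose for a time. Kdm2b (chromosome 5, 122870665 to 122989823) also brings a variant Polycomb complex to CpG islands. Kdm2b had 68.6, 97, 49.2 and 63 CPM in the 2iL libraries, 87.5, 112, 130 and 132 at 24 h, 67.4, 66.7, 86.7 and 69.9 at 48 h, 56.9, 52.1, 79.8 and 71.8 at 96 h and 69.8, 58.1, 66.6 and 63.9 at 120 h. At 24 h it was 0.73 ± 0.18 log2 (adjusted p = 0.00528) against 2iL, with 1 library inside the 2iL range. Kdm2b had 33.9, 34.9, 47 and 40 CPM in the 48 h + 2iL libraries and 44.1, 41.3, 58.9 and 69.5 CPM in the 96 h + 2iL libraries. The 48 h + 2iL libraries lay below all 48 h and all 2iL libraries, at -0.89 ± 0.19 log2 (adjusted p = 0.00128) and -0.83 ± 0.19 log2 (adjusted p = 0.00358). Kdm2a was still higher at 48 h, where Kdm2b was not called, with log2 fold changes of 0.69 at 24 h, 0.65 at 48 h, 0.05 ± 0.14 (adjusted p = 0.8) at 120 h and -0.64 ± 0.14 (adjusted p = 0.000958) in 48 h + 2iL against 48 h. Its 48 h + 2iL libraries overlapped those of 2iL, at 0.01 ± 0.14 log2 (adjusted p = 0.981). Kdm7a is a demethylase of repressive histone marks. Kdm7a had 9.18, 8.16, 19.9 and 19.3 CPM in the 2iL libraries, 7.29, 10.4, 21.4 and 14.5 at 24 h, 16.6, 21.2, 20.8 and 16.6 at 48 h, 25.7, 23.9, 37.9 and 30.4 at 96 h and 19, 27.8, 47.3 and 48.7 at 120 h. The libraries of experiments 3 and 4 were the higher ones in 2iL and at 120 h, the ranges overlapped, and the log2 fold change at 120 h was 1.33 ± 0.33 (adjusted p = 0.00104). Kdm7a had 10.6, 22.7, 19.5 and 19.5 CPM in the 48 h + 2iL libraries and 38, 30.5, 38.9 and 67 CPM in the 96 h + 2iL libraries. All of the 96 h + 2iL libraries lay above 2iL, at 1.61 ± 0.33 log2 (adjusted p = 0.000152). Kdm6b, which removes Polycomb-placed methyl groups, moved little. Kdm6b had 39.1, 28.3, 40.2 and 43.7 CPM in the 2iL libraries, 26.7, 33.9, 37.2 and 35.9 at 24 h, 33.7, 42, 20.1 and 27 at 48 h, 28.4, 25.1, 26.2 and 26.4 at 96 h and 35.8, 32.3, 59 and 40.6 at 120 h. It was -0.51 ± 0.20 log2 (adjusted p = 0.0414) at 96 h, lost with library totals, without the filter on low counts, whichever 96 h library was left out or without 2iL library 1, 3 or 4 (adjusted p up to 0.103). Kdm6b had 24.3, 25.7, 23.7 and 22.3 CPM in the 48 h + 2iL libraries and 45.1, 34.2, 44.8 and 41 CPM in the 96 h + 2iL libraries. It was 0.64 ± 0.20 log2 (adjusted p = 0.0408) in 96 h + 2iL against 96 h, lost without the filter on low counts, without 96 h + 2iL library 1, 3 or 4 or whichever 96 h library was left out (adjusted p up to 0.104). In 48 h + 2iL it was -0.65 ± 0.20 log2 (adjusted p = 0.0324) against 2iL, lost without the filter on low counts, without 48 h + 2iL library 1, 3 or 4 or without 2iL library 1, 3 or 4 (adjusted p up to 0.0969).

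Of the 8 acetyltransferases 4 fell at 120 h, led by Kat2b and Kat6b, and Kat5 rose, beside 22.6% and 24.6% of all genes. The Kat2a call, at -0.47 ± 0.17 log2 (adjusted p = 0.0241), was lost with library totals, without the filter on low counts, without 120 h library 3 or without 2iL library 1 (adjusted p up to 0.128). Kat6b (chromosome 14, 21481434 to 21672478) is a MYST-family enzyme needed in the developing brain. Kat6b had 212, 240, 208 and 269 CPM in the 2iL libraries, 117, 126, 130 and 158 at 24 h, 65.3, 79, 64.7 and 72.4 at 48 h, 38.1, 43.7, 30.5 and 26.8 at 96 h and 35.4, 44.2, 26.1 and 28.1 at 120 h. No group shared a range with 2iL, and the log2 fold change was -0.80 ± 0.18 (adjusted p = 0.00138) at 24 h, -1.72 ± 0.18 (adjusted p = 8.11e-09) at 48 h, -2.74 ± 0.19 (adjusted p = 5.81e-13) at 96 h and -2.79 ± 0.19 (adjusted p = 3.08e-13) at 120 h. Kat6b had 195, 196, 139 and 152 CPM in the 48 h + 2iL libraries and 60.3, 56.5, 27.3 and 47.2 CPM in the 96 h + 2iL libraries. It rose in 48 h + 2iL against 48 h, at 1.28 ± 0.18 log2 (adjusted p = 5.72e-06), and its remaining difference from 2iL was -0.44 ± 0.17 log2 (adjusted p = 0.094). Kat6b in 96 h + 2iL was 0.46 ± 0.20 log2 (adjusted p = 0.149) against 96 h and -2.27 ± 0.19 log2 (adjusted p = 2.74e-11) against 2iL. Kat2b (chromosome 17, 53566861 to 53672720), also called PCAF, is a coactivator acetyltransferase. Kat2b had 68.6, 49.4, 57.1 and 57.3 CPM in the 2iL libraries, 45.6, 50, 44.7 and 58.7 at 24 h, 37.3, 30.1, 33.6 and 42.9 at 48 h, 18.8, 17.4, 3.49 and 13 at 96 h and 7.83, 7.45, 7.2 and 5.36 at 120 h. The fall was called from 96 h, at -2.14 ± 0.38 log2 (adjusted p = 2.41e-05) and -3.05 ± 0.41 log2 (adjusted p = 2.11e-07) at 120 h. Kat2b had 36.9, 38.3, 19.5 and 20.5 CPM in the 48 h + 2iL libraries and 19, 4.95, 0.487 and 10.6 CPM in the 96 h + 2iL libraries. No rise was called in either arm, and the stand-apart library of experiment 3 was the lowest, with 1 count. Without it the log2 fold change of Kat2b in 96 h + 2iL against 2iL was -2.34, and with it -2.74. The library of experiment 1 was the highest, and without it the log2 fold change was -3.52.

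Kat7, the catalytic subunit of JADE and BRPF complexes, fell by less and at every time. It averaged 234 ± 15.7 CPM in 2iL, 179 ± 25.7 CPM at 24 h, 128 ± 5.1 CPM at 96 h and 141 ± 28.2 CPM at 120 h, and the 120 h log2 fold change was -0.73 ± 0.13 (adjusted p = 1.37e-05). The 24 h call was lost without the filter on low counts, with only these groups in the fit, without 24 h library 1 or 4 or without 2iL library 2 or 4 (adjusted p up to 0.118). The 48 h call was lost without 48 h library 1 (adjusted p up to 0.0507). Kat7 was the only member apart from Chd3 called higher in both arms given 2iL again, at 0.41 ± 0.12 log2 (adjusted p = 0.0215) in 48 h + 2iL against 48 h and 0.42 ± 0.13 log2 (adjusted p = 0.0292) in 96 h + 2iL against 96 h. The first call was lost without 48 h + 2iL library 4 or without 48 h library 1 or 4 (adjusted p up to 0.0861). The second was lost without 96 h + 2iL library 1, 2 or 4 or whichever 96 h library was left out (adjusted p up to 0.0761). Kat5, a MYST enzyme of DNA repair and transcription, rose. Kat5 had 29.5, 31.3, 29.7 and 20.4 CPM in the 2iL libraries, 32.2, 46.2, 25.8 and 47.7 at 24 h, 40.4, 38.5, 44.6 and 31.9 at 48 h, 45.9, 43.3, 41.9 and 32.8 at 96 h and 42.5, 39.2, 48.6 and 40.6 at 120 h. All 120 h libraries lay above all 2iL libraries, at 0.62 ± 0.19 log2 (adjusted p = 0.00689). Kat5 had 29.8, 36.2, 37.8 and 31.2 CPM in the 48 h + 2iL libraries and 38, 41.3, 32.1 and 45.3 CPM in the 96 h + 2iL libraries. In 96 h + 2iL against 2iL it was 0.49 ± 0.19 log2 (adjusted p = 0.038), lost without the filter on low counts, with only these groups in the fit, without 96 h + 2iL library 1, 2 or 4 or without 2iL library 1 or 4 (adjusted p up to 0.15).

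**Figure D2:**
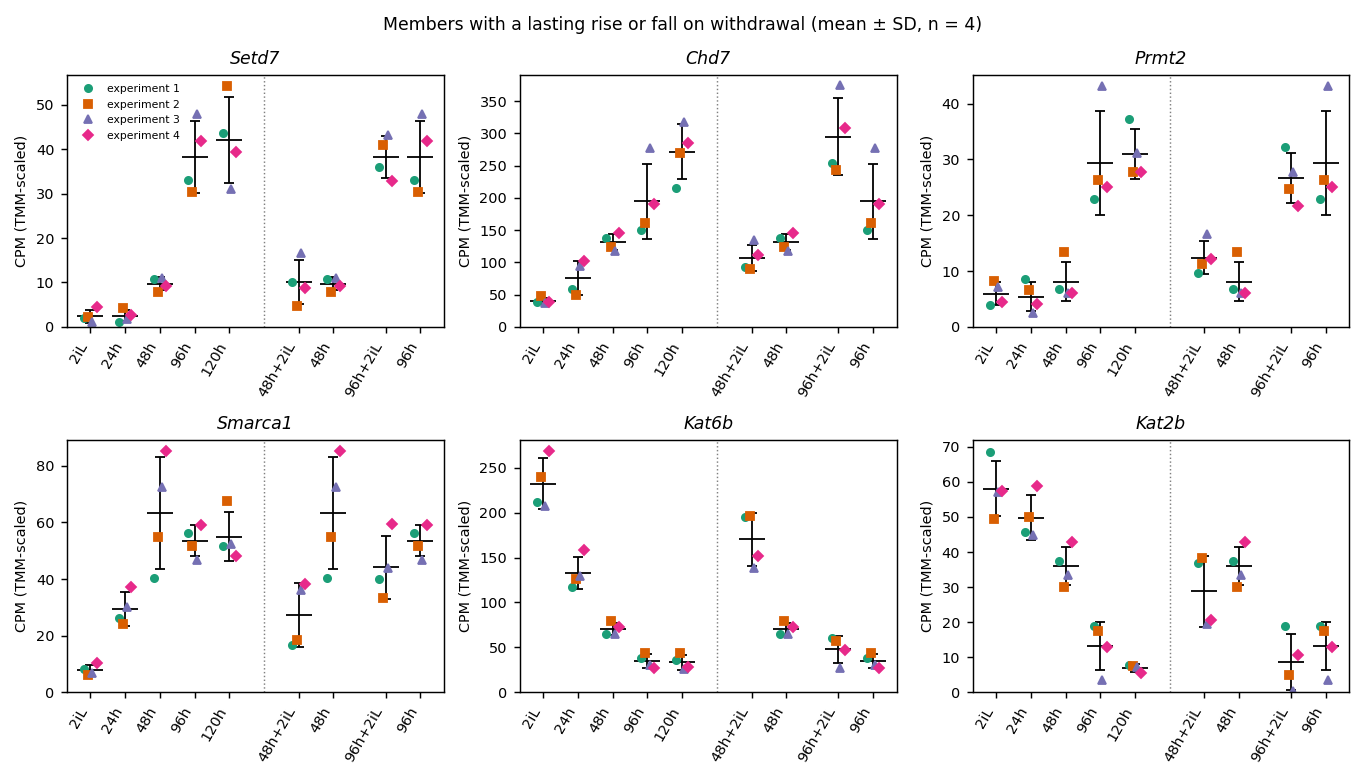
TMM-scaled CPM of Setd7, Chd7, Prmt2, Smarca1, Kat6b and Kat2b in each library (points, with the mean as a line and the SD as a bar, n = 4) through withdrawal (2iL to 120 h, left of the dotted line) and in each re-treated group beside the group it came from (right). In 96 h + 2iL each of the 6 genes stayed apart from 2iL, Setd7 at 32.9 to 43.3 CPM against 1.13 to 4.54 CPM in 2iL.

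Of the 9 deacetylases Hdac5, Hdac7 and Hdac11 rose at 120 h, and the other 6 were not called. Over all genes 24.6% rose and 22.6% fell at that time. The Hdac5 call, at 0.71 ± 0.28 log2 (adjusted p = 0.0355), was lost without the filter on low counts, with only these groups in the fit, without 120 h library 2 or 4 or without 2iL library 2 or 3 (adjusted p up to 0.181). Hdac11 (chromosome 6, 91156665 to 91174692) is the sole class IV enzyme. Hdac11 had 1.45, 1.72, 1.13 and 3.97 CPM in the 2iL libraries, 3.04, 4.71, 0 and 0 at 24 h, 4.15, 2.96, 2.44 and 2.45 at 48 h, 3.67, 6.47, 5.67 and 9.73 at 96 h and 11.9, 8.94, 6.75 and 12.1 at 120 h. These are low counts, and all 120 h libraries lay above all 2iL libraries, at 2.30 ± 0.53 log2 (adjusted p = 0.000507). Hdac11 had 5.06, 7.99, 8.73 and 3.72 CPM in the 48 h + 2iL libraries and 12.3, 14, 9.25 and 13 CPM in the 96 h + 2iL libraries. It was 2.59 ± 0.52 log2 (adjusted p = 0.000157) in 96 h + 2iL against 2iL, and 1.67 ± 0.54 log2 (adjusted p = 0.0392) in 48 h + 2iL. The 48 h + 2iL call was lost without 48 h + 2iL library 2 or 3 or without 2iL library 1, 2 or 3 (adjusted p up to 0.128). Hdac7 (chromosome 15, 97792664 to 97844502) is a class IIa enzyme that shuttles between nucleus and cytoplasm. Hdac7 had 24.6, 23.2, 30.1 and 19.9 CPM in the 2iL libraries, 10.9, 19.3, 21.4 and 11.1 at 24 h, 16.1, 18.8, 21.4 and 31.9 at 48 h, 27.5, 19.8, 51 and 30.4 at 96 h and 56.7, 61.1, 50.4 and 52.7 at 120 h. Its rise was called at 120 h alone, at 1.17 ± 0.26 log2 (adjusted p = 0.000412). Hdac7 had 11.1, 9.67, 8.73 and 8.84 CPM in the 48 h + 2iL libraries and 26.6, 34.7, 60.8 and 29.2 CPM in the 96 h + 2iL libraries. All 48 h + 2iL libraries lay below all 48 h and 2iL libraries, at -1.19 ± 0.30 log2 (adjusted p = 0.00623) against 48 h and -1.36 ± 0.30 log2 (adjusted p = 0.00222) against 2iL. The call against 48 h was lost without 48 h library 4 (adjusted p up to 0.0512). Hdac6, a mainly cytoplasmic tubulin deacetylase, was called in the comparisons with 2iL returned. Hdac6 had 72.9, 76.8, 100 and 75 CPM in the 2iL libraries, 78.4, 122, 112 and 133 at 24 h, 91.8, 102, 91.6 and 87.7 at 48 h, 72, 101, 129 and 115 at 96 h and 82.1, 108, 95 and 79.5 at 120 h. Hdac6 had 62.7, 87.5, 41.1 and 49.8 CPM in the 48 h + 2iL libraries and 58.9, 67.7, 80.3 and 69.5 CPM in the 96 h + 2iL libraries. All 48 h + 2iL libraries lay below all 48 h libraries, while the ranges of 96 h + 2iL and 96 h overlapped. It was -0.63 ± 0.19 log2 (adjusted p = 0.0223) in 48 h + 2iL against 48 h and -0.59 ± 0.19 log2 (adjusted p = 0.0414) in 96 h + 2iL against 96 h. The first call was lost without 48 h + 2iL library 3 or 4 or without 48 h library 2 (adjusted p up to 0.126). The second was lost with only these groups in the fit, without 96 h + 2iL library 1, 2 or 4 or without 96 h library 2, 3 or 4 (adjusted p up to 0.122).

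Of the 5 sirtuins, deacylases that depend on NAD, none rose in any comparison with 2iL. At 96 h 3 were lower than in 2iL, the nuclear Sirt1 and Sirt6 and the mitochondrial Sirt3, where 19.2% of all genes were lower. Sirt3 averaged 2.72 ± 1.28 CPM at 96 h and 7.77 ± 1.96 CPM in 2iL, a low level, at -1.49 ± 0.47 log2 (adjusted p = 0.0106). Sirt6 averaged 9.04 ± 3.49 CPM at 96 h and 18 ± 5.01 CPM in 2iL, with overlapping ranges, at -0.99 ± 0.27 log2 (adjusted p = 0.00316). Sirt1 averaged 30.2 ± 4.81 CPM at 96 h and 43.4 ± 4 CPM in 2iL, at -0.53 ± 0.18 log2 (adjusted p = 0.0204), lost without the filter on low counts, without 96 h library 2 or 4 or without 2iL library 3 (adjusted p up to 0.0698). None of the 3 was called at 120 h. Sirt7, a nucleolar enzyme, fell at 120 h and was the single member to differ between 96 h + 2iL and 120 h. Sirt7 had 29, 30.5, 36.4 and 25 CPM in the 2iL libraries, 20.7, 40.5, 22.1 and 37.3 at 24 h, 23.8, 27.6, 23.8 and 27 at 48 h, 22.9, 26.3, 27 and 20.7 at 96 h and 13.4, 15.9, 17.6 and 22.8 at 120 h. The 120 h libraries lay below the 2iL libraries, at -0.80 ± 0.24 log2 (adjusted p = 0.00666). Sirt7 had 24.3, 34.5, 29.9 and 48.9 CPM in the 48 h + 2iL libraries and 36.1, 29.7, 21.9 and 42.2 CPM in the 96 h + 2iL libraries. It was 0.89 ± 0.24 log2 (adjusted p = 0.0367) in 96 h + 2iL against 120 h, with overlapping ranges. That call was lost with library totals, with only these groups in the fit, without 96 h + 2iL library 1, 2 or 4 or without 120 h library 1, 2 or 3 (adjusted p up to 0.155). Sirt2, a mostly cytoplasmic deacetylase, was called at 24 h. Sirt2 had 12.1, 22.8, 19.9 and 16.5 CPM in the 2iL libraries, 10.9, 12.3, 10.1 and 6.22 at 24 h, 8.81, 14.8, 7.94 and 14.7 at 48 h, 13.3, 17.8, 16.6 and 16.2 at 96 h and 11.2, 11.9, 19.4 and 12.9 at 120 h. Its log2 fold change there was -0.84 ± 0.27 (adjusted p = 0.0292), lost without the filter on low counts, with only these groups in the fit, without 24 h library 3 or 4 or without 2iL library 2 or 3 (adjusted p up to 0.113). Sirt2 had 15.2, 18.5, 19.1 and 16.3 CPM in the 48 h + 2iL libraries and 29, 21, 21.9 and 29.8 CPM in the 96 h + 2iL libraries.

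Of the 13 Smarc genes 6 rose and Smarcd3 fell at 120 h, where 24.6% of all genes rose and 22.6% fell. Smarca1 (chromosome X, 47809368 to 47892974), an ISWI-type ATPase, rose from 24 h. Smarca1 had 8.21, 6.01, 6.76 and 10.2 CPM in the 2iL libraries, 26.1, 24, 30.2 and 37.3 at 24 h, 40.4, 54.8, 72.6 and 85.2 at 48 h, 56.4, 51.7, 46.7 and 59.2 at 96 h and 51.9, 67.6, 52.2 and 48.2 at 120 h. All withdrawn libraries lay above all 2iL libraries, and the log2 fold change was 1.92 ± 0.29 (adjusted p = 1.24e-05) at 24 h, 3.03 ± 0.28 (adjusted p = 3.81e-10) at 48 h and 2.83 ± 0.28 (adjusted p = 5.07e-10) at 120 h. Smarca1 had 16.7, 18.5, 36.2 and 38.2 CPM in the 48 h + 2iL libraries and 39.9, 33.4, 43.8 and 59.6 CPM in the 96 h + 2iL libraries. It fell in 48 h + 2iL against 48 h, at -1.20 ± 0.24 log2 (adjusted p = 0.000552), and was still 1.83 ± 0.29 log2 (adjusted p = 4.11e-05) against 2iL. Smarca1 in 96 h + 2iL was -0.29 ± 0.23 log2 (adjusted p = 0.504) against 96 h. The other ISWI ATPase, Smarca5, was called in no comparison of a pair of groups. Smarce1 (chromosome 11, 99209047 to 99231017), a BAF subunit that binds DNA, rose later. Smarce1 had 63.8, 64, 68.8 and 55.1 CPM in the 2iL libraries, 56.5, 85.8, 69.3 and 60.8 at 24 h, 65.8, 86.4, 88.5 and 79.1 at 48 h, 105, 126, 153 and 134 at 96 h and 149, 154, 192 and 146 at 120 h. All 96 h and 120 h libraries lay above 2iL, at 1.04 ± 0.17 log2 (adjusted p = 6.71e-06) and 1.35 ± 0.17 log2 (adjusted p = 5.75e-08). Smarce1 had 75.3, 77.8, 113 and 98.7 CPM in the 48 h + 2iL libraries and 136, 152, 239 and 178 CPM in the 96 h + 2iL libraries. It was 1.48 ± 0.17 log2 (adjusted p = 1.67e-08) in 96 h + 2iL against 2iL. In 48 h + 2iL it was 0.53 ± 0.17 log2 (adjusted p = 0.0355), lost without 48 h + 2iL library 3 or 4 or without 2iL library 1, 2 or 4 (adjusted p up to 0.176).

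Smarcd3 (chromosome 5, 24590818 to 24624411) encodes a BAF subunit known from heart and muscle, and its relative Smarcd1 a subunit of the embryonic stem cell complex. Smarcd3 had 30, 16.3, 20.3 and 25.6 CPM in the 2iL libraries, 12.8, 18.4, 22.7 and 6.22 at 24 h, 3.11, 3.95, 3.66 and 3.68 at 48 h, 0.459, 1.62, 4.8 and 2.03 at 96 h and 1.12, 6.95, 9.46 and 12.9 at 120 h. The 48 h and 96 h libraries lay below every 2iL library, at -2.65 ± 0.49 log2 (adjusted p = 8.76e-05) and -3.33 ± 0.50 log2 (adjusted p = 2.3e-06), and at 120 h the fall was -1.60 ± 0.44 log2 (adjusted p = 0.00287). Smarcd3 had 6.07, 8.83, 12.9 and 4.65 CPM in the 48 h + 2iL libraries and 4.75, 7.01, 9.73 and 7.45 CPM in the 96 h + 2iL libraries. It was 1.67 ± 0.54 log2 (adjusted p = 0.0478) in 96 h + 2iL against 96 h, lost with library totals, with only these groups in the fit, without 96 h + 2iL library 2, 3 or 4 or without 96 h library 1, 2 or 4 (adjusted p up to 0.161). Without 96 h library 3, the highest of its group, that log2 fold change was 2.32, and the one of 96 h against 2iL was -3.98. It was 1.17 ± 0.52 log2 (adjusted p = 0.136) in 48 h + 2iL against 48 h, and -1.48 ± 0.43 log2 (adjusted p = 0.0213) against 2iL. The call against 2iL was lost without 48 h + 2iL library 1 or 4 or without 2iL library 1 or 4 (adjusted p up to 0.0821). Smarcd1 moved the other way, with 174 ± 6.34 CPM at 48 h and 96.7 ± 17.9 CPM in 2iL, at 0.84 ± 0.13 log2 (adjusted p = 9.89e-06), and was -0.57 ± 0.13 log2 (adjusted p = 0.00242) in 48 h + 2iL against 48 h. Of the BAF ATPases, Smarca4 averaged 493 ± 32.5 CPM at 120 h and 383 ± 33.8 CPM in 2iL, at 0.36 ± 0.11 log2 (adjusted p = 0.00621). Smarca2 averaged 60.9 ± 7.86 CPM at 120 h and 28.1 ± 16.5 CPM in 2iL, at 1.10 ± 0.26 log2 (adjusted p = 0.000596). The paired scaffold subunits Smarcc1 and Smarcc2 had 120 h log2 fold changes of 0.14, not called, and 0.66 ± 0.21 (adjusted p = 0.00956). The Smarcc2 call was lost without 120 h library 3 (adjusted p up to 0.0651).

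**Figure D3:**
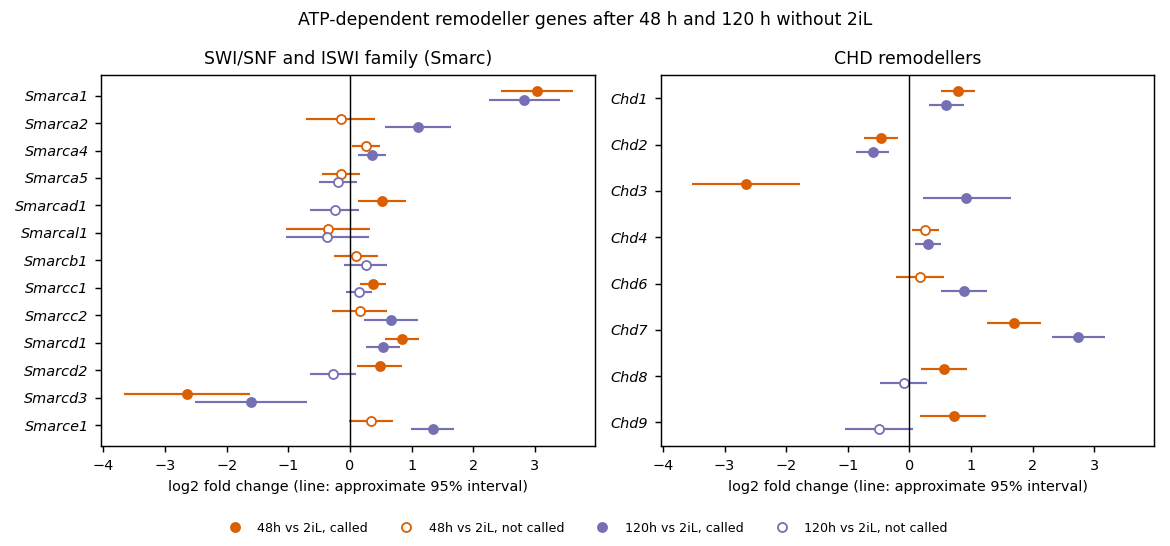
Log2 fold change against 2iL at 48 h and 120 h for the 13 Smarc and 8 CHD members, with 95% intervals from the fit. Smarca1 and Chd7 are high at both times, Chd3 is at -2.66 at 48 h and 0.93 at 120 h, and Smarcd3 is at -2.65 and -1.60.

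Of the 8 CHD genes 5 rose and 1 fell at 120 h, where 24.6% of all genes rose and 22.6% fell. Chd7 (chromosome 4, 8690406 to 8867659), the gene mutated in human CHARGE syndrome, was higher than in 2iL from 24 h. Chd7 had 38.6, 47.7, 36.8 and 39.2 CPM in the 2iL libraries, 58.9, 49, 93.9 and 102 at 24 h, 138, 124, 118 and 145 at 48 h, 150, 160, 278 and 191 at 96 h and 215, 270, 318 and 284 at 120 h. All withdrawn libraries lay above all 2iL libraries, at 0.89 ± 0.21 log2 (adjusted p = 0.00352) at 24 h, 1.69 ± 0.21 log2 (adjusted p = 1.43e-07) at 48 h, 2.26 ± 0.21 log2 (adjusted p = 1.67e-10) at 96 h and 2.74 ± 0.21 log2 (adjusted p = 2.43e-12) at 120 h. Between 96 h and 48 h the difference was 0.57 ± 0.19 log2 (adjusted p = 0.0321), lost without 96 h library 3 or 4 or without 48 h library 2 or 3 (adjusted p up to 0.231). Chd7 had 93, 89.6, 134 and 111 CPM in the 48 h + 2iL libraries and 253, 243, 374 and 308 CPM in the 96 h + 2iL libraries. No fall with 2iL was called. It was -0.30 ± 0.20 log2 (adjusted p = 0.359) in 48 h + 2iL against 48 h and 0.60 ± 0.19 log2 (adjusted p = 0.0389) in 96 h + 2iL against 96 h. The 96 h + 2iL call was lost with library totals, with only these groups in the fit, without 96 h + 2iL library 3 or 4 or without 96 h library 1, 2 or 4 (adjusted p up to 0.161). Against 2iL its log2 fold change was 1.40 in 48 h + 2iL and 2.86 in 96 h + 2iL, both called.

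Chd3 (chromosome 11, 69343273 to 69369406), a motor of the NuRD complex, fell and came back. Chd3 had 51.2, 90.2, 152 and 105 CPM in the 2iL libraries, 21.9, 21.7, 22.1 and 33.2 at 24 h, 16.6, 8.39, 17.7 and 21.5 at 48 h, 39.5, 39.2, 130 and 55.6 at 96 h and 109, 117, 268 and 266 at 120 h. The 24 h and 48 h libraries lay below every 2iL library, at -2.03 ± 0.40 log2 (adjusted p = 0.000432) and -2.66 ± 0.42 log2 (adjusted p = 1.02e-05). The 96 h libraries overlapped them. At 120 h Chd3 was 0.93 ± 0.34 log2 (adjusted p = 0.0262) against 2iL, lost with DESeq2, without 120 h library 3 or 4 or without 2iL library 1 or 2 (adjusted p up to 0.111). Chd3 had 65.2, 77, 151 and 154 CPM in the 48 h + 2iL libraries and 247, 344, 444 and 526 CPM in the 96 h + 2iL libraries. In both arms all libraries with 2iL returned lay above all libraries of the group before, at 2.82 ± 0.42 log2 (adjusted p = 1.09e-05) against 48 h and 2.56 ± 0.36 log2 (adjusted p = 8.86e-06) against 96 h. Between 48 h + 2iL and 2iL the interval of its difference was -0.56 to 0.88 on the log2 scale, and in 96 h + 2iL it was above it, at 1.96 ± 0.35 (adjusted p = 2.69e-05). In every group the libraries of experiments 3 and 4 lay above those of 1 and 2. Matched by experiment number, Chd3 was lower at 24 h and 48 h than in 2iL and higher at 120 h in all 4. The labels do not say what that number marks, so this matching is not a paired test of the 120 h rise. The related NuRD motor Chd4 was 0.30 ± 0.10 log2 (adjusted p = 0.0173) at 120 h, lost without 120 h library 3 or without 2iL library 1 (adjusted p up to 0.0956).

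Chd1, known to keep embryonic stem cell chromatin open, averaged 381 ± 11.6 CPM at 48 h and 221 ± 48.4 CPM in 2iL, at 0.79 ± 0.14 log2 (adjusted p = 3.1e-05). Chd2 was the only CHD gene called lower at 120 h. Chd2 had 152, 182, 203 and 183 CPM in the 2iL libraries, 129, 148, 229 and 162 at 24 h, 135, 129, 126 and 132 at 48 h, 108, 117, 111 and 94.9 at 96 h and 116, 128, 113 and 119 at 120 h. From 48 h on all libraries lay below all 2iL libraries, at -0.46 ± 0.13 log2 (adjusted p = 0.00685) at 48 h, -0.74 ± 0.13 log2 (adjusted p = 2.19e-05) at 96 h and -0.60 ± 0.13 log2 (adjusted p = 0.000286) at 120 h. Chd2 had 153, 160, 151 and 145 CPM in the 48 h + 2iL libraries and 110, 138, 116 and 109 CPM in the 96 h + 2iL libraries. Chd9 rose at 48 h. Chd9 had 147, 169, 133 and 128 CPM in the 2iL libraries, 167, 237, 205 and 211 at 24 h, 294, 291, 170 and 191 at 48 h, 205, 239, 77.2 and 146 at 96 h and 158, 111, 61.7 and 78.6 at 120 h. All 48 h libraries lay above all 2iL libraries, and the 48 h log2 fold change was 0.72 ± 0.26 (adjusted p = 0.0368), lost without 48 h library 1 or 2 or without 2iL library 1, 3 or 4 (adjusted p up to 0.126). Chd9 had 159, 158, 94.3 and 118 CPM in the 48 h + 2iL libraries and 97.3, 105, 67.2 and 58.3 CPM in the 96 h + 2iL libraries. It was -0.84 ± 0.26 log2 (adjusted p = 0.0248) in 48 h + 2iL against 48 h and -1.01 ± 0.27 log2 (adjusted p = 0.0124) in 96 h + 2iL against 96 h. The first of these calls was lost without 48 h + 2iL library 3 or 4 or without 48 h library 1 or 2 (adjusted p up to 0.104). The second was lost with only these groups in the fit, without 96 h + 2iL library 4 or without 96 h library 1 or 2 (adjusted p up to 0.0881). Chd9 in 96 h + 2iL was -0.81 ± 0.27 log2 (adjusted p = 0.0154) against 2iL, lost without 96 h + 2iL library 3 or 4 (adjusted p up to 0.0578).

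**Figure D4:**
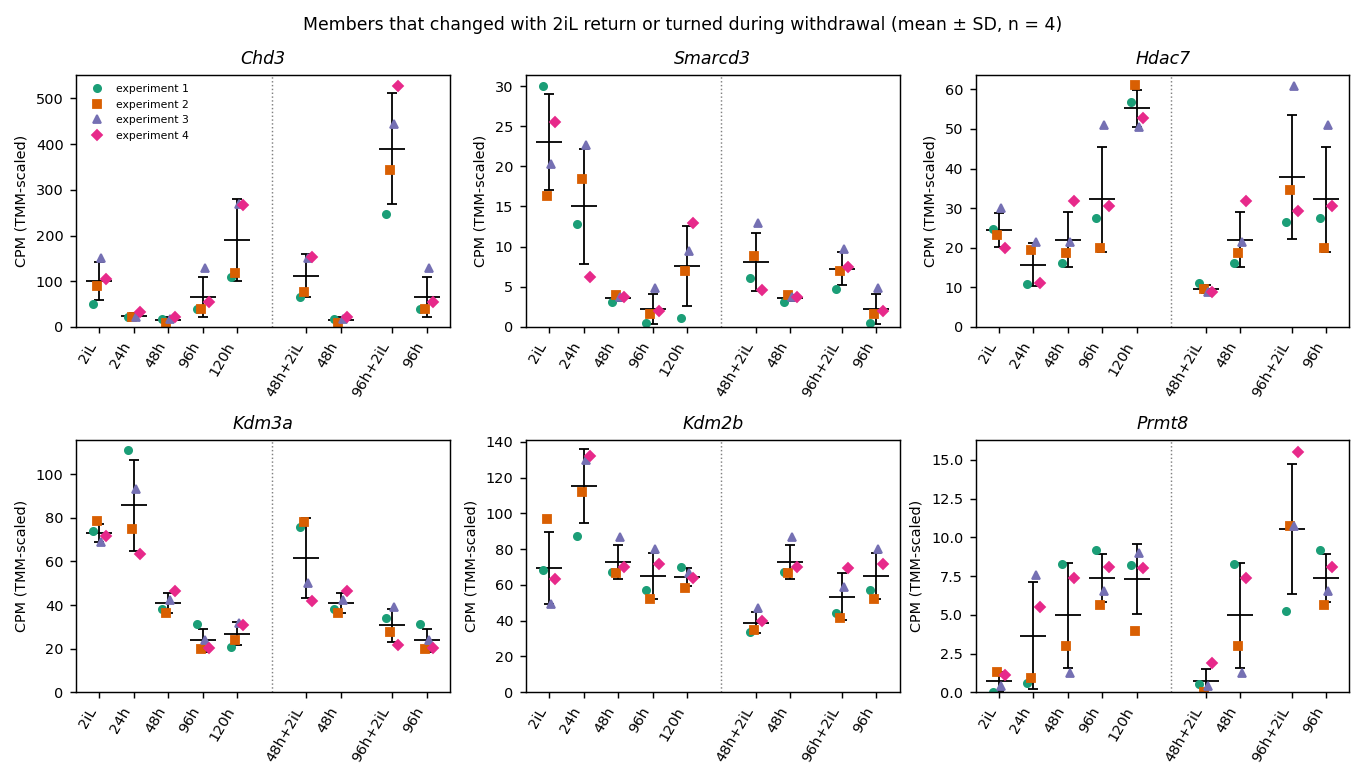
TMM-scaled CPM of Chd3, Smarcd3, Hdac7, Kdm3a, Kdm2b and Prmt8 in each library (points, with the mean as a line and the SD as a bar, n = 4), in the same layout as the plot of Setd7 and Chd7. Chd3 is at 65.2 to 154 CPM in 48 h + 2iL and at 8.39 to 21.5 CPM at 48 h, while Kdm2b and Hdac7 in 48 h + 2iL lie below both 48 h and 2iL.

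In 48 h + 2iL, 17 members (20.7%) were called against 48 h, 4 higher (Chd3, Kat6b, Kdm3a and Kat7) and 13 lower. Of all genes 14.9% were called (7.24% higher, 7.67% lower). Among the 13 were Prmt8, Smarca1, Hdac7, Kdm2b, Kdm2a, Smarcd1, Prmt1 and Chd8. The Chd8 call, at -0.64 ± 0.18 log2 (adjusted p = 0.0134), was lost without 48 h + 2iL library 1 or without 48 h library 3 or 4 (adjusted p up to 0.0652). The median over members was -0.07, against 0.00 over all genes. The count was 10 without the 48 h library of experiment 1 or of experiment 4, and 11 without that of experiment 2. The 48 h + 2iL cells also had 24 h more culture than the 48 h cells, and no 72 h group separates time from 2iL. Kdm2a, Kmt5b, Smarcc1 and Chd3 were called in the same direction at 96 h against 48 h without 2iL. Kat6b, Kat7 and Kdm3a were called in the opposite direction there. In 96 h + 2iL, 7 members were called against 96 h, 5 higher (Chd3, Smarcd3, Kdm6b, Chd7 and Kat7) and 2 lower (Chd9 and Hdac6). Of all genes 9.24% were called (4.02% higher, 5.23% lower). That count was 5 without the stand-apart library, 1 without the 96 h library of experiment 2 or the 96 h + 2iL library of experiment 4, 2 without the 96 h library of experiment 1 and 3 without that of experiment 4. Scaled by library totals it was 3 higher and 2 lower. The 96 h + 2iL cells also had 24 h more culture than the 96 h cells, so this comparison does not separate 2iL from time. None of the 7 was called against the time-matched 120 h group in the main fit. For all 7 the 120 h mean had moved from 96 h in the same direction. Means at 96 h, 120 h and 96 h + 2iL were 2.2, 7.6 and 7.2 CPM for Smarcd3. They were 66, 190 and 390 CPM for Chd3.

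The difference between the changes with 2iL returned in the 48 h and 96 h arms was tested in the same fit. No member passed, 14 had an unadjusted p under 0.05, DESeq2 called 2, a fit with the experiment as a block called 3, a fit without the 96 h library of experiment 3 called 2, and 0.921% of all genes were called (0.451% higher, 0.469% lower). The smallest unadjusted p values were those of Hdac7, at 1.43 ± 0.40 (adjusted p = 0.0856), and Prmt8, at 3.27 ± 0.93 (adjusted p = 0.0907), as the log2 response after 96 h minus that after 48 h. The counts of 17 and 7 members therefore do not show that the arms differ.

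Against cells kept in 2iL, 13 members were called in 48 h + 2iL (6 higher, 7 lower), where 11.6% of all genes were called, 6.14% higher and 5.49% lower. In 96 h + 2iL 32 members were called (19 higher, 13 lower), where 41% of all genes were, 21.4% higher and 19.5% lower. Both comparisons share the 2iL libraries with the withdrawal series. The higher members in 48 h + 2iL were Setd7, Smarca1, Hdac11, Chd7, Prmt2 and Smarce1, and the lower ones Smarcd3, Hdac7, Kdm3b, Kdm2b, Kdm6b, Kdm5b and Kmt5b. The Kmt5b call, at -0.59 ± 0.17 log2 (adjusted p = 0.0235), was lost without 48 h + 2iL library 1 or 3 or without 2iL library 4 (adjusted p up to 0.0896). The count for 48 h + 2iL was 8 without the 2iL library of experiment 1 or 4, or without the 48 h + 2iL library of experiment 3. The count for 96 h + 2iL was 27 without its stand-apart library. Against the time-matched 120 h group 96 h + 2iL differed in 1 member, Sirt7, with 2.63% of all genes called, 1.28% higher and 1.34% lower. It differed in 4 without the stand-apart library and in 3 with the experiment as a block. Without either the 120 h or the 96 h + 2iL library of experiment 1, either library of experiment 2, or the 96 h + 2iL library of experiment 4, the count was 0.

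**Figure D5:**
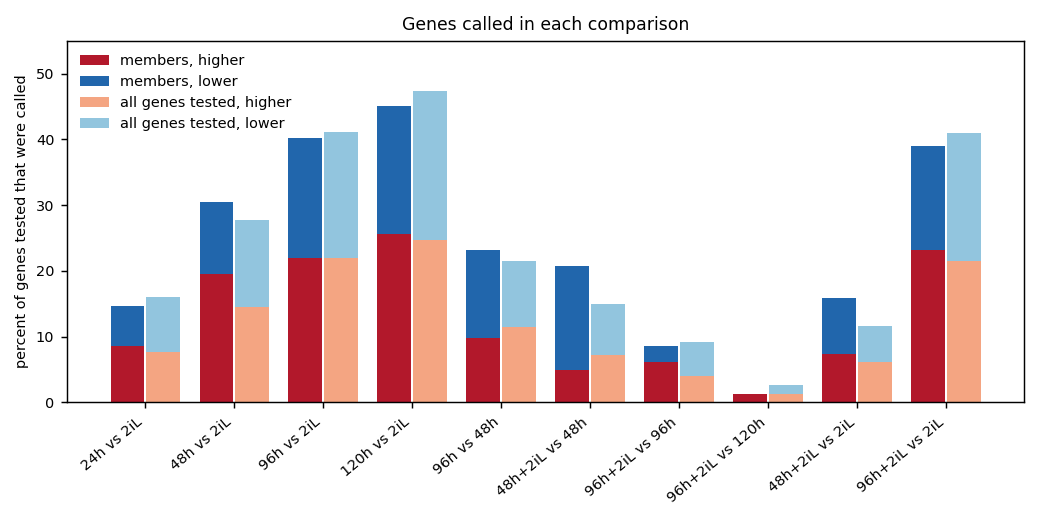
Percent of the 82 members (left bars) and of all 11080 genes tested (right bars) called in each comparison, split into higher and lower. During withdrawal, against 2iL, the shares of members were near those of all genes, from 14.6% and 16% at 24 h to 45.1% and 47.3% at 120 h. In 48 h + 2iL they were 20.7% and 14.9% against 48 h, and 15.9% and 11.6% against 2iL. Whether these shares differ was not tested.

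Between 96 h and 48 h without 2iL, 19 members differed, 8 higher and 11 lower at 96 h, with 21.5% of all genes called (11.5% higher, 9.93% lower), and 10 were higher and 8 lower when scaled by library totals. Chd3 rose by the largest amount, at 2.06 ± 0.43 log2 (adjusted p = 0.000649), followed by Setd7 at 1.97 ± 0.29 log2 (adjusted p = 1.05e-05) and Prmt2 at 1.83 ± 0.30 log2 (adjusted p = 3.56e-05). Hdac5, a class IIa deacetylase, averaged 25.6 ± 8.77 CPM at 96 h and 8.73 ± 2.11 CPM at 48 h, at 1.55 ± 0.30 log2 (adjusted p = 0.000257). Kat2b fell by the largest amount, at -1.44 ± 0.39 log2 (adjusted p = 0.00664), and Kat6b was -1.02 ± 0.20 log2 (adjusted p = 0.000277). Sirt6, a nuclear deacetylase, was -1.01 ± 0.27 log2 (adjusted p = 0.0066).

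Partners of these enzymes were counted in 7 lists at 120 h against 2iL, where 47.3% of all genes were called, and their values are log2 fold changes. Of 17 tested BAF and PBAF subunits outside the Smarc family, 7 rose and 2 fell, led by Bcl7c at 1.36 and Ss18l1 at 1.33 among the rises and by Bicral at -2.48 and Bicra at -1.14 among the falls. Bicra and Bicral are the mutually exclusive defining subunits of the non-canonical BAF complex. Of 10 NuRD subunits outside the Hdac and Chd genes, 2 rose (Cdk2ap1 at 1.55 and Mta1 at 0.99) and 2 fell (Mta3 at -0.79 and Gatad2b at -0.63). Of 13 subunits of other deacetylase corepressors, 2 rose (Rcor2 at 1.73 and Tbl1x at 0.32) and 5 fell, led by Ncor1 at -0.73 and Sin3b at -0.63. COMPASS subunits, which serve the Kmt2 and Setd1 methyltransferases, fell in 4 of 12 cases, led by Wdr5 at -1.46 and Ash2l at -1.31, and Psip1 rose at 0.98.

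Of 16 acetyltransferases and acetyltransferase subunits outside the Kat numbering, none rose and 6 fell, led by Jade1, a subunit of the Kat7 complexes, at -2.13 and Ncoa3 at -1.48. Of 24 tested methyltransferases and demethylases outside the numbered families, 6 rose and 6 fell. Suv39h1, which methylates histone H3 in heterochromatin, was at 2.24 and Nsd2 at 1.96, while Prdm14, a naive pluripotency factor of the PRDM family, was at -5.75 ± 1.03 (SE) and Smyd2 at -1.29. Of 19 other SNF2-type remodellers and their partners, 2 rose (Baz1a at 0.77 and Cecr2 at 0.45) and 7 fell, led by Baz2a, a partner of Smarca5 in the nucleolus, at -1.57 and Ino80 at -0.61. The median log2 fold change was 0.23 for the BAF list, -0.10 for the NuRD list, -0.23 for the corepressor list, -0.38 for the COMPASS list, -0.26 for the acetyltransferase list, 0.04 for the methyltransferase and demethylase list and -0.28 for the other SNF2 remodellers, against 0.01 over all genes.

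Reads that fall in a stretch shared by 2 genes limit some of these values. Another gene lies over the 3′ end of 17 of the 82 members, and in 10 cases that gene was itself tested. These pairs are Hdac7 (Slc48a1), Kat5 (Rnaseh2c), Kdm2b (Rnf34), Kmt2e (Srpk2), Smarcd3 (Chpf2), Prmt7 (Smpd3), Sirt3 (Ric8a), Kdm1b (Dek), Kat8 (Prss8) and Kdm1a (Luzp1). Whether counting used the strand is not given in the sources used here, so how reads over these pairs were assigned is not known. Reads classed as ambiguous were 0.183% to 0.227% of the records listed in each library. At 120 h against 2iL the log2 fold change was 0.28 for Slc48a1 (adjusted p = 0.487), 0.30 for Chpf2 (adjusted p = 0.619), 0.12 for Rnf34 (adjusted p = 0.621), -0.17 for Srpk2 (adjusted p = 0.409) and 0.51 for Rnaseh2c (adjusted p = 0.0259). It was 7.67 for Smpd3 (adjusted p = 7.36e-08), -0.62 for Ric8a (adjusted p = 0.0458), 0.39 for Dek (adjusted p = 0.00413), 1.04 for Prss8 (adjusted p = 0.185) and 0.11 for Luzp1 (adjusted p = 0.497). Kat6b, Kat2b, Smarca5 and Smarce1 have annotated pseudogenes. Records of reads aligning to more than 1 place, 52.3% to 60.1% of the records listed, were not counted. Whether each such record is a separate read is not given in the sources used here.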

How the data were processed

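RNA of 28 libraries was sequenced at 3′ ends. Per the submitters' processing notes, bcl2fastq, STAR 2.6.0a and HTSeq were used with mm10, with no role or order stated. The authors deposited raw counts per gene for 31053 genes in each library and 1 table of CPM for 30386 genes, whose 28 columns equal the counts scaled to 1 total per library within 1e-06. The CPM chose the members and the counts gave every test. No 2 libraries were identical, and p-values measure only the spread between these libraries, since the labels do not say how the experiments differ beyond their number. Intervals ignore that a 3′ read without a molecular identifier need not be a separate molecule.

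Genes with enough counts were kept by filterByExpr, given the groups (minimum count 10, minimum total 15), scaled by TMM and fitted with edgeR 4.0.16 (quasi-likelihood, 1 mean per group, all 28 libraries, R 4.3.3), with Benjamini-Hochberg adjustment over 11080 genes. The SE is the log2 fold change over the root of F, and intervals are 95% from that SE, both approximate. The test was tested on simulated counts first. Alternatives were DESeq2 1.42.0, library totals, no filter, the experiment as a block, only the groups compared and each library left out. The members and lists were chosen with earlier results of these data known. Any member may be named. Those with each library's value are, by family, up to 2 called rises and 2 called falls of the largest size at 120 h, and over all members the 3 largest of each in the 24 h, 48 h and re-treatment comparisons. Gene positions are from GENCODE M21 (GRCm38), and promoters from RefSeq.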

Additional observations from a re-analysis of the deposited data

Results flagged for a closer look

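In 27 members and 7 groups, 189 sets of 4 libraries were screened for a library far from the other 3 by the ratio of its gap to the whole range (Dixon, 95%). Chance alone flags about 5% of sets. The 6 found are fewer than that share of the 189 sets, so their number does not exceed chance. Smarce1 at 120 h was 192.3 CPM in experiment 3, against 146.5 to 153.5 CPM in the other libraries. Chd3 at 24 h was 33.17 CPM in experiment 4, against 21.68 to 22.05 CPM. Prmt2 at 48 h was 13.33 CPM in experiment 2, against 6.104 to 6.74 CPM, and at 96 h 43.17 CPM in experiment 3, against 22.94 to 26.28 CPM. Kdm2b at 48 h was 86.68 CPM in experiment 3, against 66.65 to 69.91 CPM. Hdac6 in 2iL was 100.3 CPM in experiment 3, against 72.95 to 76.84 CPM. Of the 6, 4 are libraries of experiment 3, but so few flags do not show a pattern by experiment.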

How the results depend on the processing

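Of 196 calls of a member in a comparison of a pair of groups, 195 passed with DESeq2, 175 with library totals, 171 without the filter on low counts and 196 with the replicate block, as did 173 of 191 with only the groups compared in the fit. None changed sign. In the fits that left out 1 library 126 calls passed every time and 70 were lost at least once. The count of members stayed within 1.5 times its value under every alternative for 24 h, 48 h, 96 h and 120 h against 2iL, 96 h against 48 h and 96 h + 2iL against 2iL. For 96 h + 2iL against 96 h it was 7, and 3 with only the groups compared. For 96 h + 2iL against 120 h it was 1, and 0 with library totals or only the groups compared, 2 with DESeq2 or without the filter, and 3 with the replicate block. For the difference between the responses it was 0, and 2 with DESeq2, 4 without the filter and 3 with the replicate block. With 1 library left out the counts ranged from 9 to 15 at 24 h, 21 to 25 at 48 h, 28 to 34 at 96 h, 32 to 38 at 120 h, 14 to 19 for 96 h against 48 h, 10 to 14 for 48 h + 2iL against 48 h, 1 to 7 for 96 h + 2iL against 96 h, 0 to 4 for 96 h + 2iL against 120 h, 8 to 14 for 48 h + 2iL against 2iL, 27 to 31 for 96 h + 2iL against 2iL, 0 to 2 for the response difference and 51 to 55 over all groups. The causes were not tested.

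Same-numbered libraries correlated between -0.0134 and 0.419 in their deviations from the group means. The correlation was above 0.1 in 3 of 4 experiments for 24 h against 2iL and for 96 h + 2iL against 96 h and against 120 h. In the other comparisons it was above 0.1 in 0 to 2 of 4. The same-numbered library was the best match in 1 to 3 of 4 experiments, depending on the comparison. The labels do not say what the number marks, so the main fit did not use it as a pairing. These values do not show that the libraries are unpaired. With the experiment as a replicate block the counts were 18, 29, 35 and 40 at 24, 48, 96 and 120 h, 25 for 96 h against 48 h, 18 and 10 for the returns of 2iL, and 18 and 34 against 2iL. A minimum of 2 CPM gives 85 members and one of 10 CPM gives 76. Members with few counts, such as Prmt8 and Hdac11, have the widest errors, and changes of the size of their SE were not detectable at this depth.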
